A study of Homo sapiens with 6 samples.

Results

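The genes described here make, load and regulate MHC class I molecules, and they were chosen by name: HLA-B, HLA-C, HLA-E, HLA-F, B2M, TAP1, TAP2, TAPBP and NLRC5. All 9 were found among the 20115 genes of the authors' deposited gene table, and none of the 2014 regions of their table of downstream-of-gene (DoG) readthrough is named for one of them. The cells are MDA-MB-231, a human line from a triple-negative breast cancer. RNA of 3 control libraries was compared with RNA of 3 libraries from cells that carry lentiviral hairpins against UBE3D, switched on with doxycycline. UBE3D is a ubiquitin ligase gene, and the series title concerns CPSF73, the nuclease that cuts pre-mRNA at its 3′ end. The labels do not say what hairpin the controls carry or whether they received doxycycline, and they call every sample pooled. Separate cultures are not stated, and the p-values then reflect library-to-library spread alone, which may be technical.

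MHC class I molecules show peptides from inside the cell to CD8 T cells. A class I heavy chain pairs with beta-2-microglobulin in the endoplasmic reticulum, where the TAP transporter brings in peptides cut by the proteasome and tapasin helps to load them. NLRC5 is a transactivator of MHC class I genes. It joins a complex of RFX, NF-Y and CREB-type factors on their promoters, as its relative CIITA does on MHC class II promoters. Interferons and NF-kB also raise class I genes, and tumour cells often lower them.

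The promoters show where these inputs meet, and they are printed because NLRC5 and the other members gave different values below. RefSeq windows of GRCh38.p14, from 250 bases before to 50 after a transcription start, were matched for 7 of the 9 genes. Capitals mark matches, on either strand, to 4 motifs: GAAANNGAA, the core of an interferon response element; GGGGATTCC, an NF-kB type site; TGACG, the core of a CRE site; and CCAAT, the box bound by NF-Y. The first group holds the heavy chain genes HLA-B, HLA-C and HLA-F, and B2M, with the stretch that spans most of their matches.

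HLA-B, chr6:31357220-31357366, minus strand: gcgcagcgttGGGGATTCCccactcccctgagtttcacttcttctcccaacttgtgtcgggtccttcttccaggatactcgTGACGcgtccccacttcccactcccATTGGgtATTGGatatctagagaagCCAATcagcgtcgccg
HLA-C, chr6:31272133-31272279, minus strand: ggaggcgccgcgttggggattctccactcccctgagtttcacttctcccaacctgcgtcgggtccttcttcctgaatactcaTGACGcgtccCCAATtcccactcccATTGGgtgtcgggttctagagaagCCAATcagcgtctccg
HLA-F, chr6:29723247-29723393, plus strand: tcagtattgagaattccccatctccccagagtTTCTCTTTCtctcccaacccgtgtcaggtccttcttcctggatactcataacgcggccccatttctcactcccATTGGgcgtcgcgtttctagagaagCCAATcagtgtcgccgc
B2M, chr15:44711357-44711486, plus strand: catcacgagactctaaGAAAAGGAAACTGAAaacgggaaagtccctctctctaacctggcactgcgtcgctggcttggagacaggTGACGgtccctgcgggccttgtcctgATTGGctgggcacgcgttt

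The second group holds the peptide transport and loading genes, with the stretch around the interferon response core of each.

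TAP1, chr6:32853805-32853854, minus strand: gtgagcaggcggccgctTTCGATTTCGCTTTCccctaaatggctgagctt
TAP2, chr6:32838760-32838809, minus strand: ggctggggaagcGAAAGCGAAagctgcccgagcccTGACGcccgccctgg
TAPBP, chr6:33314079-33314118, minus strand: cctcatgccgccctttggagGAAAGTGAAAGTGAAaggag

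In HLA-B, HLA-C and B2M a TGACG lies upstream of a CCAAT on 1 strand or the other. HLA-F has CCAAT on both strands and no TGACG in this window. The interferon response core was found in 5 of the 7 windows (HLA-F, B2M, TAP1, TAP2 and TAPBP), with 2 overlapping matches in B2M, TAP1 and TAPBP. Over 35116 RefSeq windows of this length, leaving out chromosome 8, 8.11% hold GAAANNGAA, 0.285% GGGGATTCC, 24.6% TGACG and 34.6% CCAAT. A match is a description of reference sequence and does not show that a factor binds there. Only exact matches to these strings were counted, so sites with other spacing or letters were missed. The lack of a GAAANNGAA match in HLA-B and HLA-C thus does not show that their promoters lack an interferon response element.

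**Figure D1:**
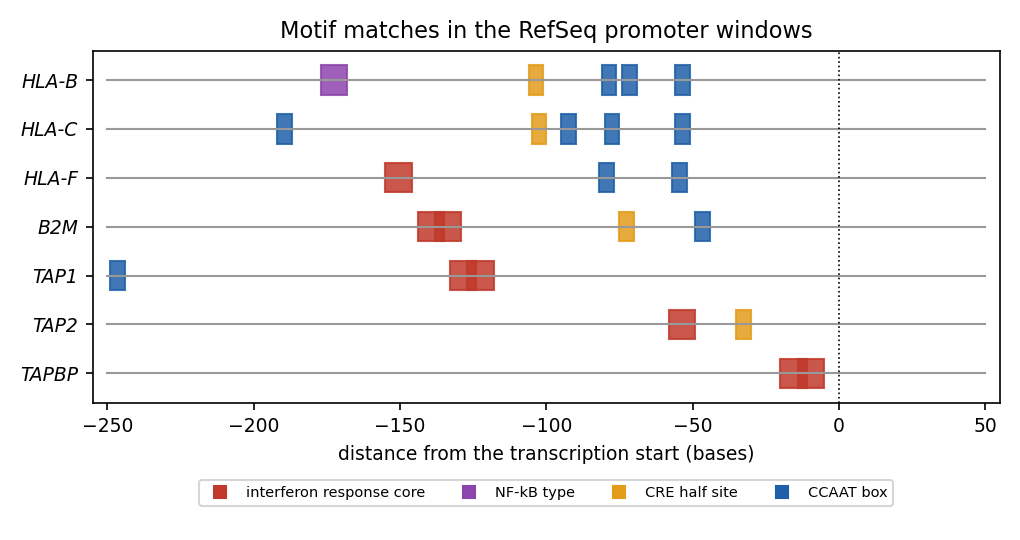
Motif matches in RefSeq promoter windows of 7 class I pathway genes. The x axis is the distance from the transcription start in bases, each grey line is the 300-base window of 1 gene, and coloured boxes are matches on either strand. HLA-B, HLA-C, HLA-F and B2M carry CCAAT boxes within 100 bases of the start, and TAP1, TAP2 and TAPBP carry the interferon response core without one there.

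The values that follow are from the authors' deposited tables: a mean normalized count over the libraries, a log2 change (the log2 of the fold change, knockdown over control) with its standard error (SE), and an adjusted p from DESeq2. Set against their SEs and p-values, the deposited changes are shrunken toward 0, noisy genes most. Values per library and library totals were not analysed here, so depth is unknown and the SE is the sole measure of precision. UBE3D, the target of the hairpins, had a log2 change of -0.80 (SE of 0.37 and adjusted p = 0.00632, mean 36.7) in the authors' deposited table. That call is lost in a Wald test of the deposited change over its SE (adjusted p = 0.295). Shrinkage weakens this test, here and below, so a call lost in it does not show that a gene was unchanged. The breast line's keratin and vimentin genes were abundant, with means of 3626 for KRT8, 2490.4 for KRT18 and 7835 for VIM in the authors' deposited table. VIM was lowered (log2 change -0.34, SE 0.16, adjusted p = 0.0349), while KRT8 (0.14, SE 0.15) and KRT18 (0.12, SE 0.14) did not pass, per the authors' deposited table.

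NLRC5 fell, and the other 8 members did not pass the threshold in either direction. Of the 9 members, 1 was lowered, 0 were raised and 8 were not past the authors' DESeq2 adjusted p of 0.05. Over all genes of the same deposited list 7.93% were lowered, 4.62% raised and 12.5% changed in either direction, and the last share was 19.8% for genes whose mean reached 100. At an unadjusted p under 0.05 the members numbered 1 raised (TAP1) and 1 lowered (NLRC5), against 9.17% and 15.1% of all genes. The median log2 change of the members was 0.04, beside -0.03 over all genes. With 9 genes, 1 call is a share near that of the table. The result is therefore about which gene was called and about the size of the intervals of the rest.

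**Figure D2:**
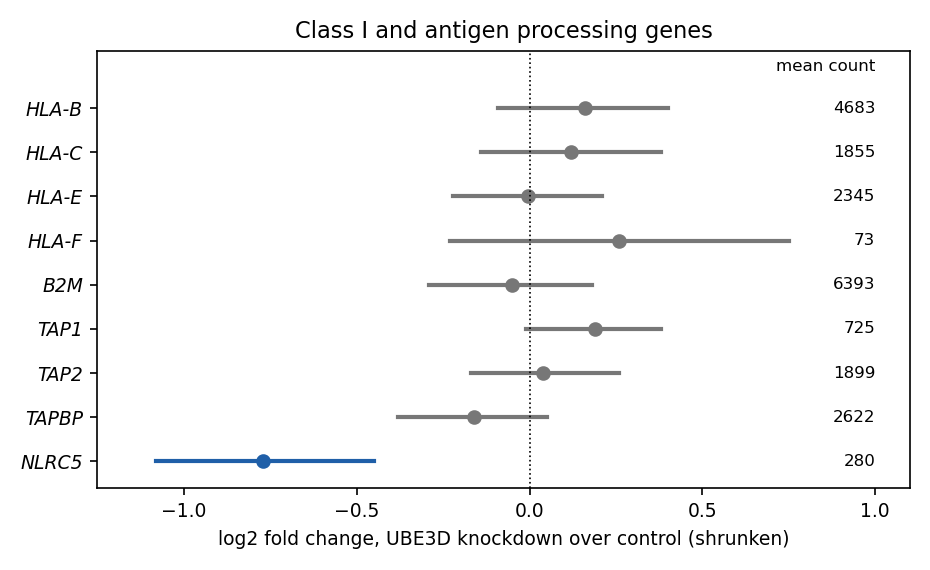
Log2 change of each member, knockdown over control, with the 95% interval from the deposited SE (line). Blue marks the gene past an adjusted p of 0.05, grey the others, and the column at the right gives the mean normalized count. The interval of NLRC5, -1.08 to -0.45, lies apart from those of the other 8 genes, which all hold 0.

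NLRC5, the class I transactivator gene on chromosome 16 (56989485 to 57083531, plus strand, GRCh38), had a mean normalized count of 280.0, per the authors' deposited table. Its log2 change was -0.77 (SE of 0.16 and adjusted p = 2.48e-06), which is 1.70-fold lower after shrinkage, per the authors' deposited table. The 95% interval of its knockdown-to-control ratio ran from 0.47 to 0.73. It kept its call in a Wald test on the deposited change and SE (adjusted p = 6.81e-05) and with changes shifted to a median of 0 (adjusted p = 1.41e-04). Among all genes 2.35% had a lower fold change. CPNE2, a copine gene that starts 9006 bases past the end of NLRC5 on the same strand, also fell: its log2 change was -0.79 (SE of 0.16 and adjusted p = 1.70e-06, mean 176) in the authors' deposited table. CETP, 5640 bases from NLRC5 on its other side, had -0.08 (SE of 0.26 and adjusted p = 0.708, mean 25.2) in the authors' deposited table. Whether the changes of NLRC5 and CPNE2 are linked was not tested.

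The heavy chain genes lie on chromosome 6. HLA-B (31269491 to 31357188, minus strand), a classical heavy chain that presents peptides to CD8 T cells, had a mean of 4683 and a log2 change of 0.16 (SE of 0.12 and adjusted p = 0.306) in the authors' deposited table. HLA-C (31268749 to 31272130, minus strand), which also serves as a ligand of killer-cell receptors, had a mean of 1855 and a log2 change of 0.12 (SE of 0.13 and adjusted p = 0.475), per the authors' deposited table. HLA-E (30489467 to 30494205, plus strand), whose product presents leader peptides of other class I chains to natural killer cells, had a mean of 2345 and a log2 change of -0.0038 (SE of 0.11 and adjusted p = 0.986) in the same deposited table of the authors. The 95% intervals bound the knockdown-to-control ratio at 0.94 to 1.32 for HLA-B, 0.91 to 1.30 for HLA-C and 0.86 to 1.16 for HLA-E. HLA-F (29722775 to 29738528, plus strand), a less polymorphic chain that can reach the surface without peptide, was far less abundant: in the authors' deposited table its mean was 73 and its log2 change 0.26 (SE of 0.25 and adjusted p = 0.218). Its interval was the widest of the 9, with a ratio of 0.86 to 1.69, so a rise of that size or a small fall could not be told from no change with this SE.

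B2M, on chromosome 15 (44711487 to 44718877, plus strand), encodes the light chain shared by all class I molecules and was the most abundant member. Its mean was 6393 and its log2 change -0.05 (SE of 0.12 and adjusted p = 0.78) in the authors' deposited table. Its 95% interval held ratios of 0.82 to 1.13. TAP1 (chromosome 6, 32845209 to 32853978, minus strand), a subunit of the peptide transporter, had a mean of 725 and the smallest p of the 8 genes not called: its log2 change was 0.19 (SE 0.10, unadjusted p = 0.026, adjusted p = 0.137) in the authors' deposited table. TAP2 (32821833 to 32838780, minus strand), the other subunit, had a mean of 1899 and a log2 change of 0.04 (SE of 0.11 and adjusted p = 0.815), per the authors' deposited table. TAPBP (33299694 to 33314387, minus strand), which encodes tapasin, had a mean of 2622 and a log2 change of -0.16 (SE of 0.11 and adjusted p = 0.24) in the authors' deposited table. The ratios spanned by the intervals were 0.99 to 1.30 for TAP1, 0.89 to 1.20 for TAP2 and 0.77 to 1.04 for TAPBP.

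Leaving out NLRC5 and the less abundant HLA-F, the intervals of the other members stayed between ratios of 0.77 and 1.32. The deposited fold changes are shrunken, so these bounds may be too narrow. For scale, 435 genes with a mean of at least 1000 passed the threshold, with sizes of the log2 change from 0.16 up and a 5th percentile of 0.27. HLA-B and TAPBP, at sizes of 0.16, were thus at the lowest size that was called at all. A p that misses the threshold does not show that a gene was the same in both groups.

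**Figure D3:**
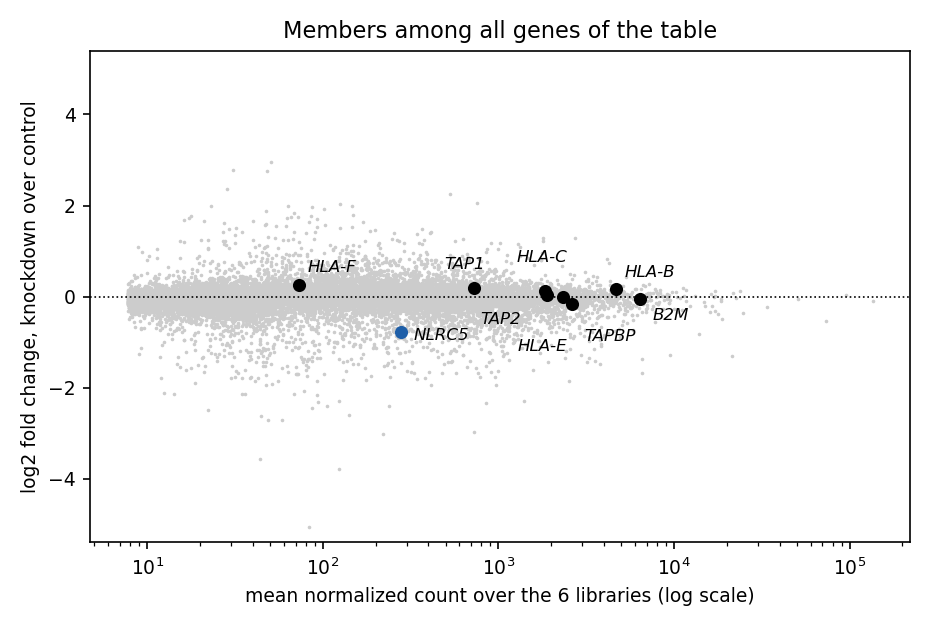
Log2 change of knockdown over control against the mean normalized count (log scale), with each gene of the table in grey, NLRC5 in blue and the other 8 members in black. The 6 members with a mean of at least 1000 lie between -0.16 and 0.16, and NLRC5 lies at -0.77.

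Per kilobase of the principal coding transcript (GENCODE 29), the mean normalized count was 3749 for B2M, 3027 for HLA-B, 1389 for TAPBP, 1194 for HLA-C and 902 for HLA-E. It was 335 for TAP2, 245 for TAP1, 44.7 for HLA-F and 41 for NLRC5. The light chain thus stood above each of the heavy chains named here, and the regulator stood lowest. These are levels pooled over both groups with no spread over libraries, so it was not tested whether neighbours in this order differ. The cells' own HLA alleles were not typed here, and reads of an allele far from the reference may have been missed.

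Some of these genes share sequence or overlap other genes, which bears on their counts. The share of 75-base windows of the principal transcript that occur unchanged, on either strand, in a transcript of another gene in GENCODE 29 was 36.1% for HLA-F, 35.3% for TAP2, 15.4% for HLA-B and 13.6% for TAP1. It was 2.02% for HLA-E, 1.96% for HLA-C, and 0 of 1814 windows for TAPBP, 0 of 1631 for B2M and 0 of 6748 for NLRC5. The largest shares of TAP2, HLA-F and HLA-B lay with AL669918.1 (35.3%), AL645939.1 (24.0%) and AL671883.2 (15.4%). The strand of these gene models was not examined here. Of the TAP1 windows 13.4% are those of PSMB8-AS1, and of the HLA-F windows 12.1% are those of HLA-F-AS1, both on the opposite strand. The libraries are stranded per the labels, but the strand setting of the counting is not given in the sources used here. PSMB8-AS1 (mean 27) and HLA-F-AS1 (mean 44.6) had log2 changes of -0.01 (SE of 0.20 and adjusted p = 0.965) and 0.12 (SE of 0.25 and adjusted p = 0.575) in the authors' deposited table. The HLA-B model in GENCODE 29 also spans most of HLA-C on the same strand, so the values of this pair depend on how the authors' annotation divides them. Of close copies of class I genes, the pseudogenes HLA-L (mean 109) and HLA-H (mean 213) had log2 changes of 0.13 (SE of 0.24 and adjusted p = 0.533) and 0.08 (SE of 0.14 and adjusted p = 0.655) in the authors' deposited table, and 0 of 3 measured class I pseudogenes passed, or were under an unadjusted p of 0.05, in DESeq2.

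Genes next to the members were compared because several share a promoter region with one. Of 12 genes of the table within 10 kb of a member that are not members themselves, CPNE2 was lowered, 0 were raised and 11 were not past the DESeq2 threshold. Over all genes 7.93% were lowered and 4.62% raised. Whether the neighbours differ from these shares was not tested. PSMB9, which overlaps TAP1 on the opposite strand and encodes a catalytic subunit of the immunoproteasome, had a mean of 197 and a log2 change of 0.28 (SE 0.17, unadjusted p = 0.0162, adjusted p = 0.098) in the authors' deposited table. PSMB8, another immunoproteasome subunit gene 506 bases from TAP1, had a mean of 567 and 0.20 (SE 0.12, unadjusted p = 0.0346, adjusted p = 0.165), per the authors' deposited table. TAP1, PSMB9 and PSMB8 thus lay above 0 with unadjusted p-values under 0.05, and none passed once adjusted over all genes. They are singled out by p, and 9.17% of all genes were raised at that unadjusted p. TAP2 (0.04), PSMB8-AS1 (-0.01) and HLA-DOB (0.12), of the same stretch, were not under it in DESeq2. Whether the stretch changed as a unit was not tested. Next to TAPBP, RGL2 had a log2 change of -0.20 (adjusted p = 0.0793), ZBTB22 0.08 (adjusted p = 0.664), PFDN6 0.01 (adjusted p = 0.966) and DAXX -0.04 (adjusted p = 0.814) in the authors' deposited table. PATL2, beside B2M, and HLA-DOB, beside TAP2, both had 0.12, with adjusted p = 0.575 and 0.583 in the authors' deposited table.

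Partners that make and trim peptides gave calls near the share of the whole table, where 12.5% of genes passed. Of 15 measured genes of peptide loading and trimming, 2 were lowered and 0 raised by DESeq2 (4 lowered and 0 raised at an unadjusted p under 0.05), with a median log2 change of -0.05. ERAP2, an aminopeptidase that trims peptides in the endoplasmic reticulum, fell by 0.66 on the log2 scale (SE of 0.16 and adjusted p = 2.51e-05, mean 161) in the authors' deposited table. LNPEP, a related aminopeptidase of endosomes, fell by 0.28 (SE of 0.13 and adjusted p = 0.0417) in the authors' deposited table, a call lost in the Wald test (adjusted p = 0.291). Of 6 genes of the immunoproteasome and its activator 0 passed in DESeq2, with a median of 0.11. At an unadjusted p under 0.05, 2 were raised, PSMB9 and PSMB8, and 0 lowered. Of 14 genes of the constitutive proteasome core, PSMA6 was lowered (log2 change -0.52, SE 0.16, adjusted p = 0.00106) in the authors' deposited table and 0 were raised (3 lowered and 0 raised at an unadjusted p under 0.05), with a median of -0.09.

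Among 15 regulators that act on class I promoters or their chromatin, 2 were lowered and 0 raised in DESeq2, a share near the 12.5% of all genes. For genes whose mean reached 100, the share called was 19.8%. At an unadjusted p under 0.05, 2 were lowered and 1 raised, beside 15.1% and 9.17% of all genes. Their median log2 change was -0.05. CIITA, the class II transactivator and a relative of NLRC5, fell by 1.48 (SE of 0.30 and adjusted p = 5.18e-07, mean 148) in the authors' deposited table. KAT2B, a histone acetyltransferase known as PCAF, fell by 0.80 (SE of 0.14 and adjusted p = 3.67e-08, mean 369) in the authors' deposited table. The DNA-binding partners of NLRC5 were measured and did not pass. The authors' deposited table gives RFX5 a log2 change of -0.05 (SE 0.10), RFXAP 0.25 (SE 0.22), RFXANK 0.16 (SE 0.15), NFYA -0.05 (SE 0.07), NFYB 0.22 (SE 0.13) and NFYC 0.01 (SE 0.09). Both transactivator genes were thus lower. Of the class II pathway, HLA-DRA, a class II chain, had -2.33 (SE of 0.26 and adjusted p = 4.65e-19) and CD74, the invariant chain, -0.72 (SE of 0.14 and adjusted p = 3.46e-07) in the authors' deposited table.

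Of 17 upstream genes of interferon receptor and STAT signalling 2 were lowered and 0 raised in DESeq2 (4 lowered and 1 raised at an unadjusted p under 0.05), a share near the 12.5% of all genes, with a median of -0.02: SOCS1, a feedback inhibitor, at -1.22 (SE of 0.66 and adjusted p = 0.00428, mean 16.7) and IFNGR2, a subunit of the interferon gamma receptor, at -0.47 (SE of 0.18 and adjusted p = 0.0067) in the authors' deposited table. Both calls are lost in the Wald test (adjusted p = 0.508 and 0.137). Of 9 NF-kB subunits and inhibitors 0 passed in DESeq2 (1 raised and 0 lowered at an unadjusted p under 0.05), with TNFAIP3 at 0.25 (SE of 0.17 and adjusted p = 0.158) and NFKBIA at 0.15 (SE of 0.11 and adjusted p = 0.279) in the authors' deposited table.

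Of 40 genes that interferon induces, 22 were raised, 2 lowered and 16 not past the threshold, beside 4.62% raised and 7.93% lowered of all genes. The lowered ones were IFITM2 (-0.93, SE 0.23, adjusted p = 2.71e-05) and IFITM3 (-0.27, SE 0.12, adjusted p = 0.0426) in the authors' deposited table. The median log2 change of the 40 was 0.36, beside 0.04 for the members. In the Wald test on deposited values 13 of the 40 were raised and 1 lowered. RSAD2, an antiviral enzyme gene, rose by 2.04 (SE of 0.18 and adjusted p = 2.37e-27), SAMD9 by 1.05 (SE of 0.12 and adjusted p = 3.85e-17), HERC6 by 0.99 (SE of 0.12 and adjusted p = 8.57e-16), the ISG15 ligase gene HERC5 by 0.92 (SE of 0.11 and adjusted p = 2.76e-16), OAS3 by 0.82 (SE of 0.11 and adjusted p = 1.55e-12) and DDX60 by 0.61 (SE of 0.10 and adjusted p = 4.69e-09) in the authors' deposited table. An earlier look at these samples had already shown interferon genes to be higher, so this is no independent evidence of their direction. Their promoters share a feature with those of the members: of 32 interferon-stimulated genes with a RefSeq window 26 hold GAAANNGAA, of which 15 rose, while 3 of the 6 without a match rose. Of the 16 with at least 2 matches 11 rose. Over all 13933 genes with a window, 5.12% of those without the core rose, 6.09% of those with 1 or more matches and 16.2% of the 117 with 2 or more. These shares count the listed interferon-stimulated genes again. They are 11 of the 19 raised genes with 2 or more matches, and 15 of the 77 raised with 1 or more. Whether a rise with the core remains without them was not tested. B2M, TAP1 and TAPBP are among those 117 genes, with log2 changes of -0.05, 0.19 and -0.16 in the authors' deposited table, none of them called. Whether the members differ from other genes with the core was not tested.

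**Figure D4:**
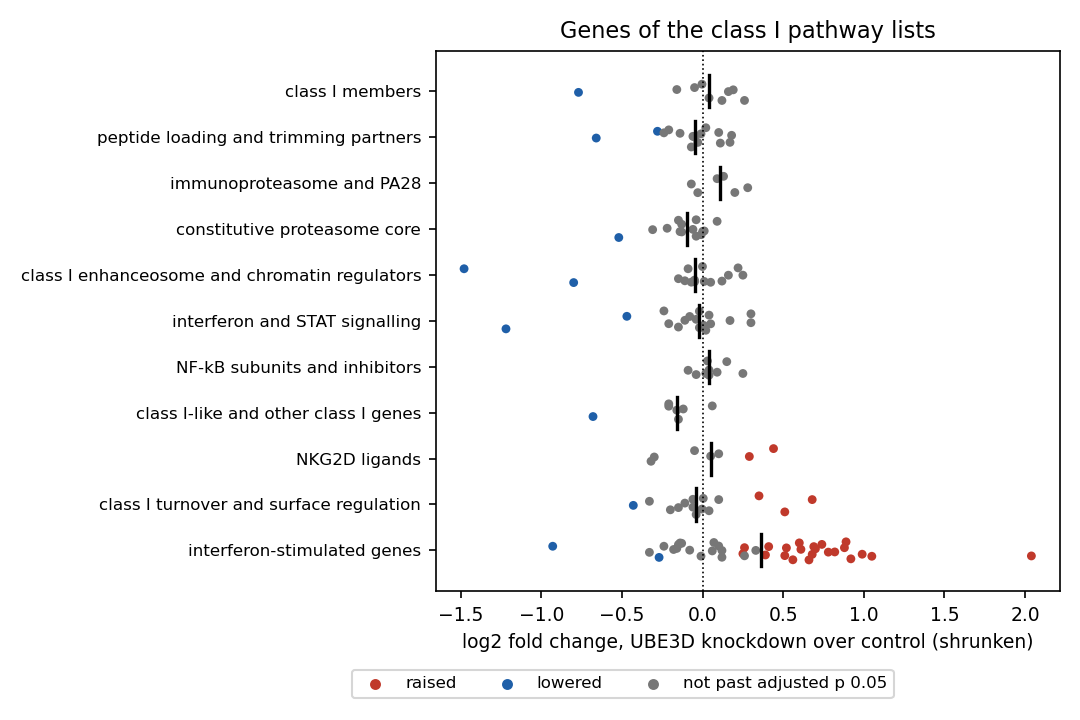
Log2 change of knockdown over control for each gene of 11 lists (points, with vertical scatter for legibility only), coloured by the deposited adjusted p of 0.05, with the median of each list as a black bar. Most points of the class I, loading and proteasome lists lie near 0, and 22 of 40 interferon-stimulated genes are marked as raised.

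Other class I family and surface genes were mixed. For scale, 4.62% of all genes were raised and 7.93% lowered in DESeq2, and 9.17% and 15.1% at an unadjusted p under 0.05. Whether the small lists that follow differ from these shares was not tested. Of 7 class I-like and other class I genes, PROCR, the endothelial protein C receptor, was lowered at -0.68 (SE of 0.19 and adjusted p = 2.36e-04) in the authors' deposited table. Of the same 7, 0 were raised (1 lowered and 0 raised at an unadjusted p under 0.05). HLA-G, a further class I heavy chain gene, had -0.21 (SE of 0.41 and adjusted p = 0.313, mean 22.6) in the authors' deposited table. Stress ligands of the natural killer receptor NKG2D that lie in the MHC class I region rose: MICB by 0.44 (SE of 0.09 and adjusted p = 2.11e-06, mean 804) and MICA by 0.29 (SE of 0.12 and adjusted p = 0.0191, mean 487) in the authors' deposited table, as 2 of 7 ligand genes, with 0 lowered (2 raised and 2 lowered at an unadjusted p under 0.05). The MICA call is lost in the Wald test (adjusted p = 0.156). Of 15 genes of class I turnover and surface regulation 3 were raised and 1 lowered (3 and 3 at an unadjusted p under 0.05). IRGQ, a receptor for the degradation of class I molecules by autophagy, rose by 0.35 (SE of 0.09 and adjusted p = 2.71e-04) and the ubiquitin ligase gene MARCH4 by 0.51 (SE of 0.23 and adjusted p = 0.0136), and the glycosphingolipid enzyme gene B3GNT5 fell by 0.43 (SE of 0.16 and adjusted p = 0.00636) in the authors' deposited table. IRGQ kept its call in the Wald test, where MARCH4 had adjusted p = 0.29 and B3GNT5 0.114.

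Of 8 T and natural killer cell markers 0 passed in DESeq2, 0 at an unadjusted p under 0.05, and their means ran from 7.95 to 43.7, with CD3D at -0.22 (SE of 0.49 and adjusted p = 0.218) and KLRD1 at 0.18 (SE of 0.40 and adjusted p = 0.376) in the authors' deposited table. Of 8 myeloid and B cell markers 2 were lowered and 0 raised (3 lowered and 0 raised at an unadjusted p under 0.05). The lowered genes, HLA-DRA (mean 853) and CD74 (mean 985), belong to the class II pathway and were abundant, and the other 6 had means from 13.2 to 89.4 in the authors' deposited table. All samples are labelled as the MDA-MB-231 line, and whether any other cells were present was not tested.

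Readthrough could be described for partners of the members alone. Of 173 measured genes of all lists 16 had a DoG region of their own name, of which 5 were lowered, 1 was raised and 10 were not past the threshold, beside 28.8% of all DoG regions called in either direction. The DoG regions of PSMB7 (log2 change -0.59, SE 0.10, adjusted p = 1.30e-08), IFI35 (-0.66, SE 0.14, adjusted p = 3.47e-06), LNPEP (-0.52, SE 0.19, adjusted p = 0.00402) and CSF1R (-0.27, SE 0.12, adjusted p = 0.0278) were among those lowered and that of BST2 (1.12, SE 0.18, adjusted p = 1.37e-10) was raised in the authors' deposited table. The gene value of PSMB7 (-0.13, SE 0.14) did not pass, per the authors' deposited table. The DoG region of CIITA had -0.02 (SE of 0.09 and adjusted p = 0.901) beside the lowered gene, per the authors' deposited table. Several of these regions had a higher mean than the gene of their name. The means were 977 and 85 for IFI35, 420.3 and 148 for CIITA, and 291 and 89.4 for CSF1R. They were 1188 and 731 for LNPEP, 1026 and 778 for PSMB7, and 262 and 965 for BST2. Whether the signal of a region is readthrough of the gene it is named for was not tested.

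None of the 9 members has the 7-base word GATTGAA in the 3′ end of its principal transcript past the stop codon, a word that an earlier look at these samples found more often in lowered genes. The word was found in 8.37% of 15771 genes of the table with such a sequence. Of the genes named above, the lowered KAT2B, PSMA6 and LNPEP hold it, and so do the raised SAMD9 and OAS3. The lowered NLRC5, CIITA and ERAP2 do not. Among interferon-stimulated genes with such a sequence 7 of 40 hold it, or 17.5%. Whether it bears on any of these changes was not tested.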

How the data were processed

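RNA of 3 control and 3 UBE3D knockdown libraries of MDA-MB-231 cells was depleted of ribosomal RNA and sequenced as stranded pairs of 75 bases, per the labels' protocols. Cutadapt 1.8.1, STAR 2.5.2b, DESeq2 and the build hg38 are named in the submitters' processing notes. The annotation, the counting tool and its strand setting were not given in the sources used here. Deposited tables hold, per the file headers, the mean normalized count (a signal), the log2 change with its SE, and raw and adjusted p-values of the authors' DESeq2 step, with no value per library. The adjusted ones match Benjamini-Hochberg over all rows. Means in the gene list start at 7.74, and depth is unknown.

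Members, lists and the naming rule were chosen with earlier results of these data known. The rule named all 9 members, up to 6 called genes per list by p (2 where none passed), every gene within 10 kb of a member, and UBE3D; other named genes were chosen after their values were seen, and some genes the rule would name are not reported here. Of 13 lists beside the members, 1 listed gene or more was not matched by symbol in 5. Intervals are 95% normal intervals from deposited SEs. The Wald test used change over SE with adjustment over all 20115 genes. A protein comparison was planned, and 75-base transcript windows of GENCODE 29 were used in its place. Alternatives were other thresholds, minimum means of 50 and 100, and Wald tests. Steps ran in Python 3.11.15 with pandas 2.3.3, scipy 1.17.1 and numpy 2.4.6 and were tested on simulated data.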

Additional observations from a re-analysis of the deposited data

How the results depend on the processing

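No paired analysis was possible because the deposited tables hold no value per library, and leaving out a library could not be run for the same reason. NLRC5 was the 1 lowered member, with 0 raised and 8 not past the threshold, under thresholds of 0.01 and 0.1, minimum means of 50 and 100 (the latter leaves out HLA-F, so 7 are not past it) and both Wald tests. HLA-E changed sign, to 0.02, with changes shifted to a median of 0; its size is far below its SE. The median of the members was 0.07 when shifted, -0.05 without the HLA genes and 0.02 at a mean of at least 100. Over the pathway lists together 27 genes rose, 13 fell and 124 were not past the threshold, beside 4.62% raised and 7.93% lowered of all genes. Of the 27 that rose, 22 are from the list of interferon-stimulated genes. At 0.1, 22 fell; at a mean of at least 100, 82 were not past it, as fewer genes entered. The Wald test on deposited values gave 15 raised and 8 lowered, and 17 and 8 with changes shifted; the deposited changes are shrunken, which weakens this test. Of 41 calls over members and lists, 24 and 26 were shared with these tests, with 0 new calls in either. The strength of statements on HLA-F and on genes with means under 50 is limited by their SE.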
